A study of Mus musculus with 40 samples.

Results

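The broad H3K27ac domains of white preadipocytes and of the brown-like adipocytes made from them are long runs of chromatin in which histone H3 carries acetyl groups on lysine 27. The domains were chosen by a rule that uses the measured peaks: the narrow peaks of 23 H3K27ac libraries were merged wherever they overlapped by 1 bp or more, and merged regions of 8 kb or longer were kept. The rule selected 310 of 202700 merged regions. It pools the libraries and uses neither genotype nor day, so the lengths of the domains are a description. The merged length is nonetheless set by the libraries with most coverage. A region covered on the later days alone, such as Zbtb16 domain 2, entered through the days on which it is high. A region high at day 0 alone, such as Metrnl domain 1, owes its length mostly to that day. Counts and tests of domains that rose or fell with differentiation are thus in part fixed by the rule. The same holds for domains lower in DKO at day 6, when WT libraries had more coverage.

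The cells came from inguinal white adipose tissue of C57BL/6 mice, 8 to 12 weeks old, that were wild type (WT) or lacked both HMGN1 and HMGN2 (genotype Hmgn1-/- and Hmgn2-/-, double knockout, DKO). HMGN proteins bind nucleosomes and are found at acetylated enhancers. Preadipocytes grown on collagen-coated plates were collected at day 0, and cells of both genotypes received insulin, dexamethasone, IBMX, T3 and rosiglitazone and later insulin with T3, with collection at days 3, 6 and 9. These 8 groups held 3 H3K27ac libraries each. The deletion is present in every cell from birth, and the labels do not say whether libraries of a group came from separate mice or cultures, so p-values measure the spread between these libraries.

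H3K27ac marks active promoters and enhancers. In most cells it lies in narrow peaks, while a small set of long acetylated stretches, often called super-enhancers or stretch enhancers, gathers at genes that are highly active or that define the cell type. During adipogenesis glucocorticoid and cyclic AMP signals first open enhancers through C/EBP factors and the glucocorticoid receptor, and PPARγ then activates the genes of lipid storage.

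The sequence under the strongest summit is shown for 4 domains on which the results below turn. These are the longest domain (Lrp1), the only domain that passed the test for less coverage in DKO cells on all 4 days (Galnt9), a domain that fell in DKO cells at day 6 under every alternative processing (Cyth3) and the largest loss with differentiation in percentage points covered (Fmnl1). Each window is 300 bases of the + strand of GRCm38.p6 (mm10), from RefSeq, with the summit at base 151. Capitals mark matches on either strand to the motifs searched: AP-1 TGANTCA, C/EBP TTNCNNAA, EBF CCCNNGGG, TEAD GGAATG, NFI TTGGCA and DR1 core GGTCANAGG.
Lrp1 domain summit window, chr10:127618957-127619256: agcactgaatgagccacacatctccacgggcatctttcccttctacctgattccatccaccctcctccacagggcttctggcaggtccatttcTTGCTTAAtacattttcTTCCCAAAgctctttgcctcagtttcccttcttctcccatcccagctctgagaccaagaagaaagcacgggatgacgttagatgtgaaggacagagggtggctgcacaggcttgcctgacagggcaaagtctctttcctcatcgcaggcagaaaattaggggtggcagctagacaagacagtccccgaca
Galnt9 domain summit window, chr5:110598594-110598893: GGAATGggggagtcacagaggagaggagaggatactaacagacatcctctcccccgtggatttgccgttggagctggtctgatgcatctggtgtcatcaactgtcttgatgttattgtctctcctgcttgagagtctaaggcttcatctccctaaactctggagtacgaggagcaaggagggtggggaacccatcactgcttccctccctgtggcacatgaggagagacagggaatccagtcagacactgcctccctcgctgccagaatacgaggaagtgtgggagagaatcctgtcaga
Cyth3 domain summit window, chr5:143634513-143634812: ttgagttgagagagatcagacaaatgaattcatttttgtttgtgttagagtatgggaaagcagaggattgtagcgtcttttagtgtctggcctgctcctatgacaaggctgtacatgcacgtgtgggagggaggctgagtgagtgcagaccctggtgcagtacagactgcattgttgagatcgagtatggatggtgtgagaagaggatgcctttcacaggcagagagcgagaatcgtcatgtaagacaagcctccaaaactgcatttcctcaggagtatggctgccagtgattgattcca
Fmnl1 domain summit window, chr11:103171878-103172177: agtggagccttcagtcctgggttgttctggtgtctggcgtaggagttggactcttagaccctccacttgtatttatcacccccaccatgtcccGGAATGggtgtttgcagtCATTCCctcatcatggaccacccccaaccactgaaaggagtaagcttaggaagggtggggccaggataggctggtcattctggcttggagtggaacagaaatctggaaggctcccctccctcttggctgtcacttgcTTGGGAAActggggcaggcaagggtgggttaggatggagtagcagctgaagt

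All 4 windows lie in introns. The Lrp1 window held 2 C/EBP matches, at bases 94 and 111, the Galnt9 window 1 TEAD match at base 1, and the Fmnl1 window 2 TEAD matches and 1 C/EBP match. The Cyth3 window held none of these letters. Over the summit windows of all 310 domains, 37.1% held the C/EBP letters against 45.5% of all 113779 regions tested, and 6.77% held the AP-1 letters against 8.38%. The EBF letters stood in 18.4% of domains, 13.4% of the regions of 4 to 8 kb and 10.3% of all regions tested. TEAD letters stood in 16.5% of domains and 16.3% of all regions, NFI letters in 13.2% and 15.1%, and the DR1 core in 1.94% and 2.05%. A match is a description of letters in the window and not evidence of binding.

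The domains made up 3.30 Mb, or 2.37% of all merged sequence, with a median length of 9.51 kb. Of the 310 domains, 185 were 8 to 10 kb, 97 were 10 to 15 kb and 28 were 15 kb or longer. For comparison 2 other length classes are used, the 2149 regions of 4 to 8 kb and the 200241 shorter ones. A peak was present in all 23 libraries in 299 domains (96.5%), against 84.4% of regions of 4 to 8 kb and 8.75% of shorter regions. The domains were nonetheless not single blocks of constant extent. Only 25.7% of their bases lay under a peak in all 23 libraries, 75.05% lay under a peak in 12 or more, and a single peak of 8 kb or more was called in some library in 94 domains. Among regions near the threshold of 8 kb, the shortest domain lay in Rbms3 (8002 bp, with 4.25 to 7.73 kb covered and a median of 6.86 kb over the libraries), followed by domains in Bcl2l1 (8046 bp, median 5.24 kb) and at the start shared by Col4a2 and Col4a1 (8070 bp, median 6.45 kb). Just under it lay a region near Zfhx4 (7960 bp, median 7.06 kb), the region at the start of Ifi207 (7956 bp, median 5.37 kb) and one in Fam227b (7950 bp, median 4.50 kb).

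A domain was called by the protein-coding genes that start in it, otherwise by the gene whose body holds most of it, otherwise by the gene with the nearest start. A protein-coding gene start lay in 79 domains, 200 lay inside a gene body and 31 were intergenic. On average 73.6% of a domain was intronic, 9.68% exonic and 16.7% intergenic. The domains held 0.270 protein-coding gene starts per 10 kb, fewer than the 0.463 of regions of 4 to 8 kb and the 0.503 of shorter ones. GC content differed little, with a median of 48.9% in domains and 47.0% over all merged regions, and the ratio of observed to expected CpG was 0.236 in domains, the same as in regions of 4 to 8 kb (0.236).

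**Figure D1:**
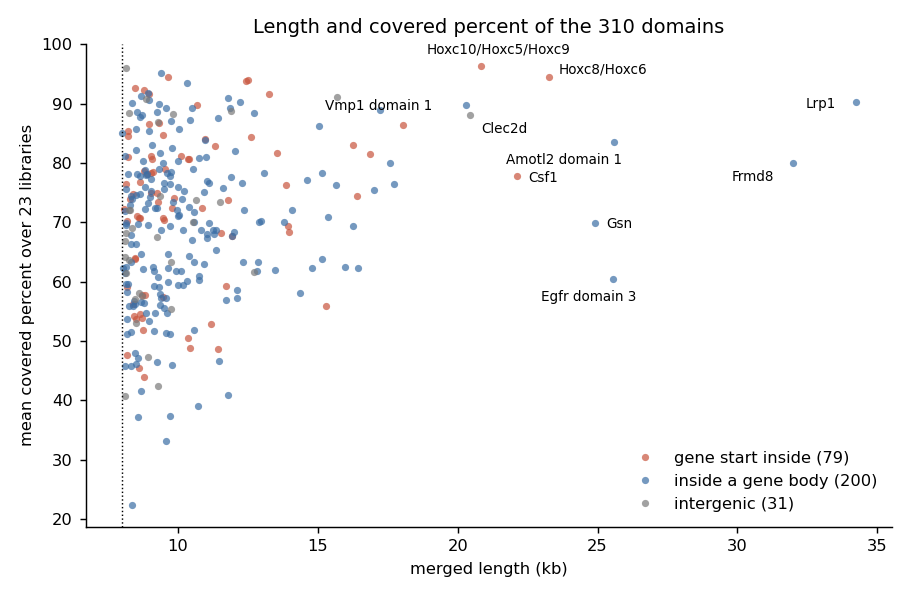
Merged length in kb (x axis) against the mean covered percent over 23 libraries (y axis) for the 310 domains, coloured by place, with the dotted line at 8 kb and the 10 longest named. Most domains were under 15 kb, and the longest, in Lrp1, spanned 34.2 kb with 90.2% covered on average.

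The longest domain, of 34.2 kb on chromosome 10 (127586798 to 127621028), lay in the first part of Lrp1, which encodes an endocytic receptor for lipoproteins. It was covered over 29.5 to 33.0 kb in every WT library and 23.7 to 32.3 kb in every DKO library used. The second, 32.0 kb on chromosome 19, is called by Frmd8 but held the whole of the long noncoding RNA gene Neat1 (20.8 kb of overlap) and its antisense neighbour Frmd8os, Neat1 RNA being the scaffold of nuclear paraspeckles. Next were domains at Amotl2 (25.6 kb), a scaffold protein that restrains YAP, and in Egfr, the epidermal growth factor receptor (Egfr domain 3, also 25.6 kb), where the antisense gene Egfros overlaps 7.39 kb and the lists carry no strand. Gsn, encoding the actin-severing protein gelsolin, held a domain of 24.9 kb, and Csf1, encoding the macrophage growth factor, one of 22.1 kb. The remaining members of the 10 longest were the domains at Hoxc8 and Hoxc6 (23.3 kb) and at Hoxc10, Hoxc5 and Hoxc9 (20.8 kb, with Mir196a-2), an intergenic domain over the noncoding gene 2310001H17Rik called by its neighbour Clec2d (20.4 kb), and Vmp1 domain 1 (20.3 kb), which held Mir21a.

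Among the most completely covered domains were the pair of Hoxc domains, with 96.3% (Hoxc10/Hoxc5/Hoxc9) and 94.4% (Hoxc8/Hoxc6) covered on average over the 23 libraries. With them stood the domain at Irf2bp2, a transcriptional corepressor (95.1%) and one within Bcl6, a transcriptional repressor (94.5%, called by Gm37419, a gene model that starts at its edge). None of these 4 passed the test for genotype on any day or for WT day 9 against day 0. The Hoxc8/Hoxc6 domain, for example, was covered over 20.7, 21.9 and 21.6 kb in WT day 0 libraries and 22.8, 22.9 and 22.6 kb at day 9. At the other end, the lowest mean coverage was 22.4% (Fmnl1), and 11 domains had no peak at all in some library.

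Several genes held more than 1 domain: 41 genes gave their name to 103 of the 310 domains. Tgfbr3, which encodes the TGF-β co-receptor betaglycan, held 8 domains that sum to 87.6 kb on chromosome 5. Egfr, Vmp1, Fbn1 and Klf14 gave their names to 4 each, summing to 53.3, 51.1, 41.3 and 34.0 kb. Myh9, Tns1, Bcl2l1, Atp5o, Rasa3 and Col4a1 were among those with 3. Domains of 1 gene share its neighbourhood and are not independent of each other.

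Of 21938 protein-coding genes, 268 (1.22%) had a domain over the gene or the 5 kb before its start. The share was 6 of 20 adipogenic regulators (Zbtb16, Ebf1, Cebpb, Srebf1, Nr3c1, Nfia), 7 of 25 matrix genes (Col1a1, Col4a1, Col4a2, Fbn1, Col6a3, Sparc, Mmp14) and 4 of 13 glucocorticoid targets (Zbtb16, Angptl4, Fkbp5, Dusp1). It was 8 of 39 Hox genes, all in the Hoxa and Hoxc clusters, 4 of 23 contractile, TGF-β and Hippo genes (Amotl2, Myh9 and Tgfbr2 among them), 4 of 28 lipid storage and adipokine genes (Lpl, Lipe, Angptl4, Acsl1), 3 of 22 stromal progenitor genes (Prrx1, Tbx15, Pdgfrb) and 1 of 14 AP-1 and immediate early genes (Fosl2). Of 4 white adipocyte genes singled out by the study, which chose them on data from these cells, Galnt9 held one. No domain lay over the gene or the 5 kb before its start at any of 19 brown adipocyte genes, 8 HMG family genes, 76 ribosomal protein genes or 22 markers of other cell types. An intergenic pair of domains nearest to the start of the brown list gene Ppara, and called by it, lay outside that window, 47.9 and 25.5 kb before the start, and was not counted. Longer genes have more room for a domain. The median gene length was 17.4 kb over all protein-coding genes, 48.5 kb for the adipogenic regulators, 36.7 kb for the matrix genes and 3.27 kb for ribosomal protein genes.

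Coverage at marker genes was set beside the labels, as kb under peaks over each gene and the 5 kb before its start, summed over a list. Lipid storage and adipokine genes had 44.5 to 54.7 kb in WT libraries at day 0, when Adipoq, Cidec and Plin5 had no peak, and 187 to 221 kb at day 9. Brown adipocyte genes had 14.6 to 17.3 kb in WT libraries at day 0, against 29.9 to 37.4 kb at day 9. In DKO libraries at day 9 the lipid list had 291 to 313 kb and the brown list 56.5 to 67.2 kb, both above every WT library of that day. On the other days the genotypes overlapped in both lists. These sums are unscaled, and the genotype difference was not tested. Ucp1, the defining gene of thermogenic fat, had no peak within this window in any group at any day. The study reports raised H3K27ac and transcript for Ucp1 in DKO cells, measured at brown-specific enhancers, which is a different measure. Hmgn2 had no peak in any DKO library and 0.781 to 1.80 kb in every WT library. Hmgn1 kept a peak in all 12 DKO libraries (0.875 to 3.57 kb). Whether these peaks lie in the deleted parts is not given in the sources used here.

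The lists hold peaks and no read totals, so the sequencing depth behind them is unknown and coverage in kb moves with the number of peaks called. Libraries held 47448 to 115923 peaks. WT day 6 libraries held 98503 to 105511 and DKO day 6 libraries 47448 to 74867, without overlap, and DKO day 6 replicate 3 had the fewest of all. The local background that the fold and p-value of the peaks imply, expressed as reads per kb after scaling by the peak caller, was 9.13 to 12.8 in the libraries used, apart from WT day 3 replicate 3 with 4.50. At day 6 it was 9.82 to 11.2 in WT and 9.81 to 11.4 in DKO. DKO day 0 replicate 2, left out by the rule, had no peak under 440 bp, against 155 to 165 bp in the others, and a longest peak of 59095 bp. It left 2 DKO libraries at day 0.

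The domains as a whole had more coverage in WT cells at days 6 and 9 than at day 0. The length under peaks, summed over the 310 domains, was 2.07, 2.24 and 2.18 Mb in the WT libraries at day 0 (mean 2.16 ± 0.0866 Mb, SD, n = 3), 2.35 ± 0.349 Mb at day 3, 2.70 ± 0.0499 Mb at day 6 and 2.63 ± 0.128 Mb at day 9. The libraries of days 6 and 9 all lay above those of day 0, and the spread at day 3 came with WT day 3 replicate 3 at 1.95 Mb. In DKO cells the same sum was 2.18 ± 0.154 Mb at day 0 (n = 2), 2.08 ± 0.210 Mb at day 3, 1.87 ± 0.372 Mb at day 6 and 2.76 ± 0.0677 Mb at day 9. The genotypes overlapped at days 0, 3 and 9. At day 6 they did not, with 2.68, 2.67 and 2.76 Mb in WT and 2.06, 2.12 and 1.44 Mb in DKO, a difference of -0.831 Mb or -30.7% of the WT mean. These sums are described without a p-value, since the members were chosen by the rule.

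The fall at day 6 was not limited to the domains. The covered percent of the domains was 82.0% ± 1.51 in WT and 56.8% ± 11.3 in DKO at day 6, that of regions of 4 to 8 kb 71.0% and 45.8%, and that of shorter regions 37.5% and 19.1%. As a share of all sequence under peaks in a library, the domains therefore held more in DKO at day 6, 6.21% ± 0.668 against 4.71% ± 0.124, without overlap. With each library cut to its 20000 strongest peaks this difference of 1.499 points became -0.213 points. At day 9 the order was the reverse, with 4.28% ± 0.150 in DKO and 4.76% ± 0.335 in WT, again without overlap. At day 0 the shares were 4.29% in WT and 4.14% in DKO, and at day 3 they were 5.40% and 6.00%, with overlap both times.

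Coverage within a domain was more broken up at day 6 in DKO cells. WT libraries had 5.41 to 5.90 peaks per domain and DKO libraries 7.29 to 7.95, and the longest single peak of a domain had a median of 3.99 ± 0.303 kb in WT and 1.87 ± 0.522 kb in DKO. Similar values occurred in a WT library of low yield: WT day 3 replicate 3, with 68629 peaks, had 7.54 peaks per domain and a median longest peak of 2.04 kb. The number of domains covered over at least 0.5 of their length was 292 to 301 in WT and 121 to 233 in DKO. At day 9 DKO domains held fewer peaks, 5.11 to 5.92 against 5.94 to 6.73. In the 142 domains with a protein-coding transcript start, the sequence within 1 kb of a start stayed better covered: 88.6% in WT against 70.5% in DKO at day 6, while the rest of those domains had 81.3% against 57.2%. The gap between the rest and the starts was -7.28 points in WT and -13.3 points in DKO at day 6, without overlap, and -8.40 and -5.80 points at day 9, again without overlap but in the reverse order. At day 0 this gap was -13.7 points in WT and -13.4 in DKO, and at day 3 the lowest WT library had -16.9. The part of peak yield in these measures was not tested. The strongest peak of a domain ranked at a median percentile of 95.7 among all peaks of its library in WT and 91.5 in DKO at day 6. When each group's libraries were merged alone, 87 regions of 8 kb or more arose at day 6 in WT and 16 in DKO, against 26 and 25 at day 0 (DKO from 2 libraries), 50 and 19 at day 3, and 75 and 93 at day 9.

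**Figure D2:**
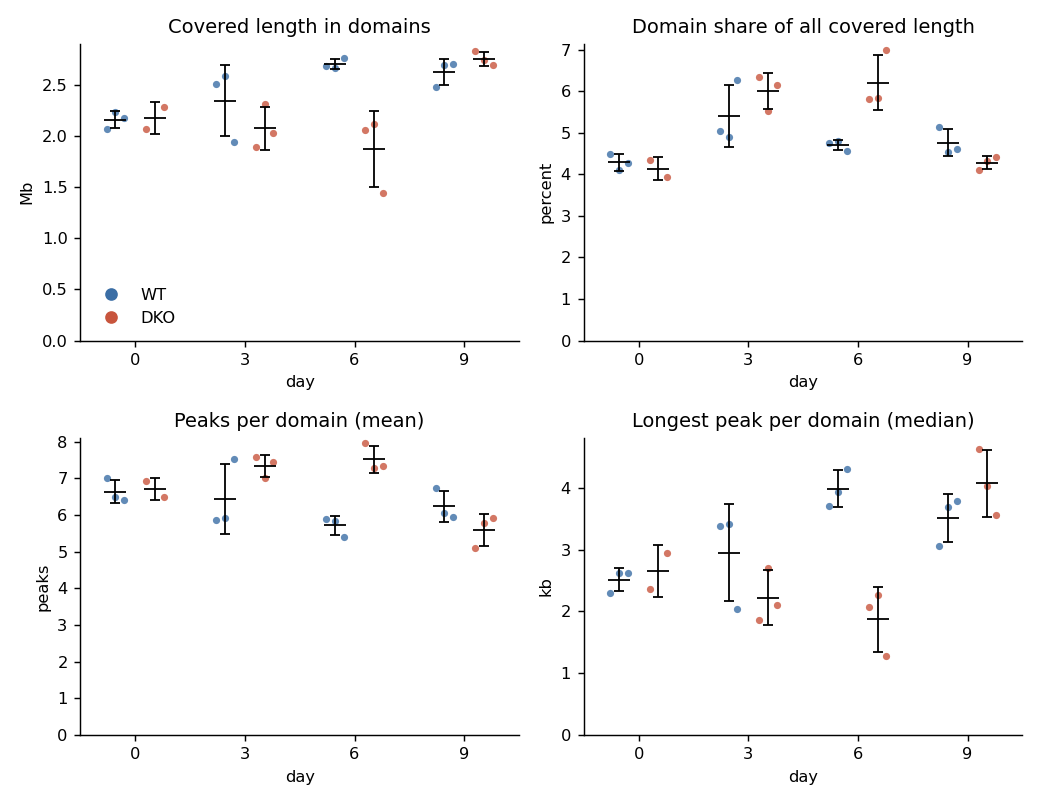
Covered length in the domains (Mb), domain share of all covered length (percent), mean peaks per domain and the median over domains of the longest peak (kb), by day for WT and DKO, with 1 point per library and bars for mean ± SD (DKO day 0 has 2 libraries). At day 6 the WT and DKO points do not overlap in any of the 4 panels, with 2.67 to 2.76 Mb covered in WT and 1.44 to 2.12 Mb in DKO.

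Single domains were tested with limma on the covered percent of every merged region with a peak in at least 3 libraries (113779 regions, all 310 domains among them), with Benjamini-Hochberg adjustment over all of them and a threshold of 0.05. Long regions vary less in percent covered: the median SD in the fit was 8.44 points in domains and 15.9 over all regions, so domains pass the threshold more readily at the same difference. Libraries merged by group gave 26 regions of 8 kb or more in WT at day 0 and 75 at day 9, so the pooled rule took in more regions that are long at day 9, and the counts of rises are given as a description. Between WT day 0 and day 9, coverage rose in 107 domains and fell in 18, that is 34.5% and 5.81% of the domains, against 14.8% and 14.6% of all regions tested. Scaled to the library total the counts were 73 and 23, and 26.5% of all regions passed in either direction. In regions of 4 to 8 kb the shares were 34.9% and 11.6%. The median change was 8.83 percentage points in the domains and 0.851 over all regions, or 1.99 and 0 when scaled. In DKO cells 122 domains rose and 12 fell over the same days (21.9% and 14.2% of all regions). Scaled, 54 rose and 24 fell, and 27.4% of all regions passed in either direction.

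Of the 3 steps in WT cells, the first 2 held most calls. From day 0 to day 3, 68 domains rose and 30 fell (5.25% and 14.3% of all regions). From day 3 to day 6, 48 rose and 1 fell (9.25% and 1.27%), or 17 and 13 when scaled to the library total (6.78% of all regions passed in either direction). From day 6 to day 9, 6 rose and 7 fell (3.01% and 3.63%). Consecutive steps share the libraries of a day. These counts rest on libraries of uneven yield. Without WT day 3 replicate 3 the last step gave 10 and 10, with 7.38% of all regions passed in either direction. Without replicate 1 of every group the 3 steps gave 25 and 17, 20 and 0, and 1 and 1, with 13.1%, 4.64% and 3.86% of all regions passed.

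In kb the largest gain of a domain from day 0 to day 9 in WT cells was at Zbtb16 domain 1, followed by the domain over Neat1, Zbtb16 domain 2, Gsn and Acss3. Zbtb16 encodes the zinc finger factor PLZF and is a known glucocorticoid target in fat. Zbtb16 domain 1 (12.9 kb, intronic) had no peak in any of the 3 WT libraries at day 0, 8.51, 8.68 and 7.14 kb covered at day 3, 11.7, 11.4 and 11.9 kb at day 6. By day 9 it reached 12.01, 12.6 and 12.2 kb. In DKO libraries it went from 0.171 and 0.163 kb at day 0 to 12.6 kb in each at day 9. The WT difference from day 0 to day 9 was 12.2 ± 0.76 kb (SE, limma, adjusted p = 1.0e-08), and the groups of the 2 days did not overlap. Zbtb16 domain 2 (12.1 kb, also intronic) had no peak in any day 0 library of either genotype and 10.9 to 11.9 kb in the WT libraries at day 9 (11.4 ± 0.85 kb, adjusted p = 5.7e-08). Both Zbtb16 domains entered through the later days, so the direction of their change was fixed by the rule. Their p-values are given as a description.

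The domain over Neat1 (Frmd8), second in kb, had 16.05, 18.2 and 18.3 kb in WT libraries at day 0 and 29.3, 30.1 and 29.4 kb at day 9 (12.1 ± 1.9 kb, adjusted p = 5.4e-05). Gsn rose from 9.60, 13.4 and 10.8 kb to 20.3, 21.6 and 21.7 kb (9.95 ± 1.6 kb, adjusted p = 7.0e-05). The domain at the start of Acss3, a mitochondrial short-chain acyl-CoA synthetase, rose from 1.56, 1.21 and 1.46 kb to 9.70, 9.84 and 10.3 kb (8.55 ± 0.84 kb, adjusted p = 4.9e-07). In each of the 3 the lowest day 9 library lay above the highest of day 0. Acss3, with little coverage at day 0, also owes its length to later days, and its rise is in part fixed by the rule. All 5 of these gains, those of Zbtb16 included, kept their call under the 14 other settings tried.

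The largest loss in kb was at Metrnl domain 1. Metrnl encodes the secreted factor meteorin-like, and its domain had 8.85, 9.78 and 9.69 kb covered in WT libraries at day 0, already 2.75, 2.43 and 2.18 kb by day 3, then 2.84, 2.56 and 3.15 kb on day 9 (-6.59 ± 0.72 kb from day 0 to day 9, limma, adjusted p = 1.4e-06). All libraries of days 3, 6 and 9, of both genotypes, had at most 3.74 kb. The domain thus owes its length mostly to day 0. For it and for Fmnl1, next, the fall is in part fixed by the rule, and the p-values are given as a description. Fmnl1, a formin of blood cells, went from 5.98, 6.27 and 6.75 kb at day 0 to 0, 0.165 and 0.165 kb at day 9 (-6.22 ± 0.62 kb, adjusted p = 5.3e-07), a call lost with 20000 peaks per library (adjusted p = 0.60). In DKO cells it went from 7.63 and 7.89 kb to 0.911, 0.707 and 0.193 kb. Nrp2, a receptor for semaphorins and VEGF, lay between 6.93 and 8.15 kb at day 0, and later, at day 9, between 3.22 and 3.59 kb (-4.00 ± 0.77 kb, adjusted p = 4.7e-04), and Grk2, a kinase of G protein-coupled receptors, between 6.401 and 7.54 kb and then between 2.74 and 3.79 kb (-3.73 ± 0.78 kb, adjusted p = 0.0011).

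The Stab1 domain, which holds the start of the macrophage scavenger receptor stabilin-1 and 3.60 kb of its neighbour Nisch, had 5.84, 6.74 and 5.29 kb in WT libraries at day 0, and 2.30, 2.57 and 2.71 kb at day 9 (-3.43 ± 0.80 kb, adjusted p = 0.0026). Without replicate 1 of every group its adjusted p was 0.073. Coverage of the 22 markers of other cell types moved the same way as Fmnl1 and Stab1: the list summed to 30.1 to 34.1 kb in WT at day 0, against 10.8 to 14.7 kb at day 9, and in DKO it went from 37.2 to 46.1 kb down to 16.4 to 19.1 kb. Among its blood cell genes, Ptprc (CD45) had 3.75, 3.55 and 3.23 kb in WT at day 0 but no more than 0.339 kb at day 9, and Csf1r 9.67 to 11.98 kb, later 3.47 to 4.02 kb. Of the 22 markers, 10 had no peak in WT or DKO libraries at day 0, among them Myod1, Myf5, Pax7, Myog, Sox10 and Epcam. The part of other cells in the result was not tested, and in a bulk culture fewer cells of a type cannot be told from less acetylation per cell.

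At the lipid storage genes all 4 domains rose in WT cells from day 0 to day 9, against 34.5% of all domains. Domains with little coverage at day 0, such as Lipe, entered through later days, so such rises are in part fixed by the rule. Lipe, hormone-sensitive lipase, had 1.26, 1.48 and 1.68 kb covered at day 0 and 8.36, 9.99 and 9.34 kb at day 9 (7.75 ± 0.80 kb, limma, adjusted p = 8.1e-07). Lpl, lipoprotein lipase, rose by 6.14 ± 1.1 kb, Acsl1, a fatty acyl-CoA synthetase, by 4.76 ± 0.61 kb and Angptl4, an inhibitor of lipoprotein lipase, by 3.20 ± 0.69 kb. Their median difference was 49.4 points. Of 7 domains at adipogenic regulators, 5 rose (both of Zbtb16 and those at Srebf1, Nr3c1 and Nfia), and 4 of 5 at glucocorticoid targets did. Among these Fkbp5, a chaperone of the glucocorticoid receptor, went from 2.86, 2.72 and 2.37 kb to 8.92, 10.3 and 10.3 kb. Scaled to the library total the counts were 3 of 4 lipid domains (not Angptl4), 3 of 7 adipogenic and 3 of 5 glucocorticoid ones, and none of these domains fell under either scaling. The lists share the Zbtb16 domains, and Angptl4 is in both the lipid and the glucocorticoid list.

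At matrix genes 6 of 12 domains rose in WT cells from day 0 to day 9, against 34.5% of all domains. The 3 domains inside Col4a1 and that at the start shared by Col4a2 and Col4a1, which encode basement membrane collagen IV, rose by 4.22 to 7.003 kb, also when scaled to the library total. Col6a3 and Fbn1 domain 4 rose by 2.17 ± 0.68 and 2.55 ± 0.82 kb, and neither passed when scaled. Col1a1, encoding fibrillar collagen I, did not pass the test over these days but fell from day 0 to day 3 (-3.99 kb, limma, adjusted p = 0.029). Scaled to the library total none of the 12 fell, while with 20000 peaks per library Col1a1 was lower at day 9. None of the 4 domains at the stromal progenitor genes Prrx1, Tbx15 and Pdgfrb and 1 of 6 at contractile, TGF-β and Hippo genes (Amotl2 domain 1, up by 5.36 ± 0.95 kb, adjusted p = 2.1e-04) rose over the 9 days. Of the 3 Hox domains, Hoxa9 rose by 1.42 ± 0.44 kb (limma, adjusted p = 0.020). None of these stromal, contractile and Hox domains fell in the unscaled values, but Pdgfrb and Myh9 domain 1 were lower at day 9 both when scaled and with 20000 peaks per library, where Prrx1 domain 2 was higher. Neither Amotl2 domain 1 nor Hoxa9 passed when scaled. The single AP-1 domain, at Fosl2, differed by -0.37 ± 0.34 kb and did not pass.

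At day 0 and day 3 few domains differed by genotype. At day 0 none was higher and 1 lower in DKO cells (3.11% and 1.55% of all regions tested), with a median difference of 0.0883 points. The limma count at day 0 was 6 higher and 1 lower on the log2 scale, and 2 higher and 10 lower with 20000 peaks per library. Of all regions tested, 3.33% and 3.97% passed in either direction under these settings. At day 3 none was higher and 2 were lower (0.0949% and 0.651%), and the median was -7.20 points against -1.28 over all regions. Scaled to the library total this turned, with 4 higher and 1 lower (2.66% of all regions passed in either direction) and a median of 9.45 points against 0. Without WT day 3 replicate 3, 31 domains were lower at day 3, and 5.91% of all regions passed in either direction.

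At day 6, 201 of 310 domains (64.8%) had less coverage in DKO cells and none had more, against 23.1% and 0.236% of all regions. This direction depends on the scaling. Once covered percent was scaled to each library's total, 150 were higher and 30 lower, and 19.5% of all regions tested passed in either direction. With 20000 peaks per library 1 was higher and 101 lower, and 11.5% of all regions passed. Merged by group, the WT libraries gave 87 regions of 8 kb or more at day 6 and the DKO libraries 16. The pooled rule thus took in more regions that are long in WT at day 6. The counts are in part fixed by the rule and are given as a description. The median difference was -23.9 points in domains, -24.3 in regions of 4 to 8 kb and -15.6 over all regions tested. With scaling to the library total it was 20.9 points in domains and 0 over all regions, and with 20000 peaks per library -19.9 points in domains. In the unscaled values 306 of 310 domains lay below 0. Without DKO day 6 replicate 3, 126 were lower and none higher (12.4% of all regions passed in either direction), and the median was -17.4. In regions of 4 to 8 kb, 58.1% were lower, so that the share in domains was close to that of the next shorter class. All values of day 6 that follow are unscaled unless a scaling is named.

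**Figure D3:**
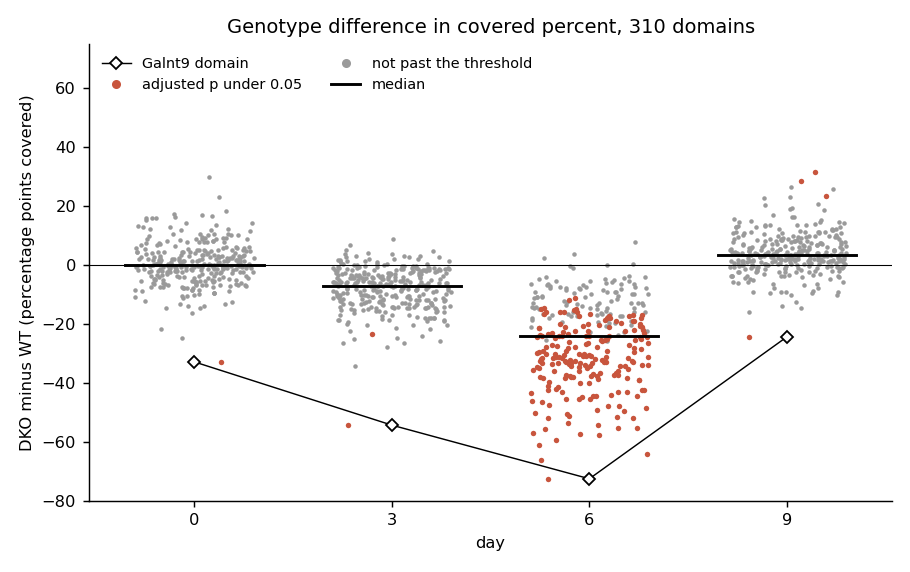
DKO minus WT difference in covered percent (percentage points, unscaled) for each of the 310 domains by day, with domains past the threshold in red, the median as a bar and the Galnt9 domain drawn again as diamonds joined by a line. At day 6, 201 domains were past the threshold, all lower in DKO, but 150 were higher and 30 lower after scaling to the library total. Of all regions tested, 23.4% passed unscaled and 19.5% after scaling.

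The Egfr domain had the largest difference in kb at day 6. Egfr domain 3 was covered over 20.5, 21.1 and 21.1 kb in WT libraries and 7.64, 10.8 and 3.02 kb in DKO libraries, without overlap (-13.7 ± 2.2 kb, SE, limma, adjusted p = 3.4e-04). At day 9 the genotypes overlapped, with 16.4, 20.1 and 19.1 kb in WT and 19.6, 16.8 and 18.3 kb in DKO. With 20000 peaks per library it did not pass (limma, adjusted p = 0.105). Csf1 had 20.3, 21.0 and 20.6 kb in WT and 12.4, 12.6 and 5.37 kb in DKO (-10.5 ± 1.6 kb, adjusted p = 1.9e-04), and lost the call when scaled to the library total (adjusted p = 0.53). DKO day 6 replicate 3 was the lowest library at both, and both calls held without it.

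Col1a1 was covered over nearly all of its 15.4 kb in both genotypes at day 0, with 15.3, 15.1 and 15.3 kb in WT and 15.1 and 14.9 kb in DKO. At day 6 the WT libraries had 9.11, 9.61 and 11.1 kb and the DKO libraries 2.33, 2.66 and 1.28 kb (-7.87 ± 1.3 kb, limma, adjusted p = 2.8e-04). At day 9 both were back at 13.0 to 14.8 kb. With 20000 peaks per library the adjusted p at day 6 was 0.61. Cyth3, which encodes an exchange factor for ARF GTPases, had 12.1, 11.5 and 11.7 kb in WT and 5.32, 5.65 and 2.11 kb in DKO at day 6 (-7.38 ± 0.99 kb, adjusted p = 6.3e-05). It was lower in DKO under all 14 other settings, with adjusted p from 1.7e-05 to 0.013.

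Most domains at matrix and stromal genes were lower in the unscaled values, as were 64.8% of all 310 domains and 58.1% of regions of 4 to 8 kb. Of 12 domains at matrix genes 10 were lower in DKO at day 6 (Col1a1, Sparc, Mmp14, the 4 of Fbn1 and the 3 inside Col4a1; median -37.5 points), but scaled to the library total 4 were higher and 3 lower (Col1a1, Fbn1 domain 3 and Fbn1 domain 4), and with 20000 peaks per library 6 were lower. Fbn1 domain 4, in the gene of fibrillin-1, had 8.97, 8.88 and 9.53 kb in WT and 3.66, 4.25 and 1.49 kb in DKO, and the 4 Fbn1 domains differed by -3.63 kb (Fbn1 domain 1) to -5.99 kb (Fbn1 domain 4). Of 4 stromal domains 3 were lower, and none was lower when scaled, when Prrx1 domain 2 was higher. Tbx15, a regulator of the identity of fat depots, differed by -7.12 ± 0.98 kb (limma, adjusted p = 8.0e-05), Prrx1 domain 1 by -3.48 ± 0.76 kb and Pdgfrb, the PDGF receptor of stromal cells, by -2.84 ± 0.66 kb.

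All 8 domains of Tgfbr3 were lower in DKO at day 6, from -1.62 ± 0.43 kb (Tgfbr3 domain 1) to -7.13 ± 1.3 kb (Tgfbr3 domain 3), but when scaled to the library total 3 were higher and Tgfbr3 domain 2 alone was lower, and 5 were lower with 20000 peaks per library. Tgfbr3 domain 2 had 8.79, 8.68 and 8.95 kb in WT and 3.99, 3.62 and 0.799 kb in DKO. This gene was singled out after its values were seen. Of 6 contractile, TGF-β and Hippo domains 4 were lower (Tgfbr2 domain 1, Myh9 domain 1 and Myh9 domain 2 among them), beside 64.8% of all 310 domains. Scaled, 3 of the 6 were higher, Tgfbr2 domain 1 among them, and none lower. The single AP-1 domain, at Fosl2, was lower by -1.08 ± 0.34 kb (limma, adjusted p = 0.027) and higher when scaled.

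Angptl4 alone among 4 lipid domains was lower in DKO at day 6 (-1.93 ± 0.69 kb, limma, adjusted p = 0.047), whereas all 4 were higher when scaled to the library total. Lipe had 9.88, 10.6 and 10.5 kb in WT and 9.75, 9.78 and 8.02 kb in DKO, and did not pass unscaled. Acsl1 had 5.36, 5.15 and 5.67 kb in WT and 6.89, 6.39 and 4.81 kb in DKO, and did not pass either. Of 7 adipogenic domains 1 was lower, Zbtb16 domain 2 (-3.19 ± 0.85 kb, limma, adjusted p = 0.010), and 6 were higher when scaled. Of 5 glucocorticoid domains 3 were lower (Dusp1, Angptl4, Zbtb16 domain 2) and none of 3 Hox domains was, while scaled 4 and 3 were higher. Over all 310 domains the share lower in the unscaled values was 64.8%. Scaling multiplies the covered percent of a library with few peaks, also in domains that are already covered over nearly all of their length.

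The difference in these counts between lists, or from the 64.8% of all domains, was not tested. By place, 42 of 79 domains with a gene start (53.2%) were lower, 135 of 200 inside gene bodies (67.5%) and 24 of 31 intergenic ones (77.4%), and by length 63.2%, 68.0% and 64.3% in the classes of 8 to 10, 10 to 15 and 15 kb or more. The longest domain, Lrp1, had 32.5, 32.5 and 32.6 kb in WT and 29.0, 28.6 and 23.7 kb in DKO (-5.42 ± 1.3 kb, adjusted p = 0.0053).

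The domains were also split by their call in WT cells between day 0 and day 9. Of the 185 domains with no call over these days, 142 (76.8%) were lower in DKO at day 6 in the unscaled values, of the 107 that rose 52 (48.6%) and of the 18 that fell 7 (38.9%). Over all regions tested the shares were 23.9% of those without a call, 35.4% of those that rose and 7.15% of those that fell, so the order of the first 2 classes differed between domains and all regions. The order was not tested.

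**Figure D4:**
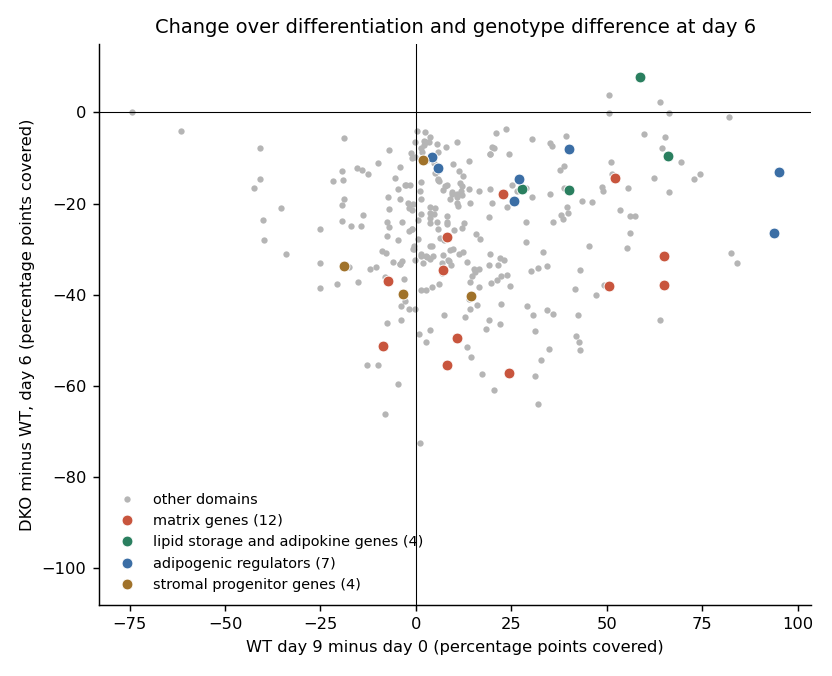
For each of the 310 domains, the change in covered percent in WT cells from day 0 to day 9 (x axis, percentage points) against the DKO minus WT difference at day 6 (y axis, percentage points, unscaled), with domains of 4 gene lists coloured. The 4 lipid domains lie to the right, between -17.0 and 7.82 on the y axis with a median of -13.2 points, and the 12 matrix domains between -57.1 and -14.4 with a median of -37.5 points, both of which turn above 0 when scaled to the library total (49.4 and 7.16).

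By day 9 few domains differed by genotype, although the domain share and the peaks per domain did not overlap between genotypes. The limma test found 3 domains higher and 1 lower in DKO cells (5.5% and 0.965% of all regions tested), and the median was 3.30 points in domains and 3.78 over all regions. The median of the domains was -8.06 points when scaled to the library total and 0.397 points without replicate 1 of every group. The count of 4 in all ranged from 0, when scaled to the library total, to 17 with 20000 peaks per library. Of all regions tested, 2.84% and 4.72% passed under these settings. The difference between genotypes was higher at day 9 than at day 6 in 166 domains and lower in none (20.7% and 0.354% of all regions), and lay above 0 in all 310. Scaled to the library total, this turned, with 1 higher and 116 lower (9.52% of all regions passed in either direction). Without replicate 1 of every group 9 were higher (4.78% of all regions passed).

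The 3 higher domains at day 9 had modest differences. Ms4a6b, a tetraspan membrane protein of the MS4A family known from immune cells, had 2.57, 4.02 and 3.87 kb in WT and 7.22, 6.50 and 6.31 kb in DKO (3.19 ± 0.96 kb, SE, limma, adjusted p = 0.049). In both genotypes it was highest at day 3, with 9.61, 9.67 and 7.58 kb in WT. At day 9 the markers of other cell types summed to at most 14.7 kb in a WT library. Every DKO library had at least 16.4 kb. Among the blood cell genes of this list, every DKO library lay above every WT library at Csf1r and Adgre1. The lowest DKO values were 4.38 and 0.439 kb, and the highest WT values 4.02 and 0.339 kb. At Itgam and Cd68 the genotypes overlapped. Ptprc went the other way, with 0 in all 3 DKO libraries and at most 0.339 kb in WT. The part of these markers in the Ms4a6b difference was not tested. Nim1k, a protein kinase whose domain reaches 1.28 kb into the cholesterol synthesis gene Hmgcs1, had 4.84, 5.61 and 4.63 kb in WT and 7.93, 7.54 and 7.81 kb in DKO (2.73 ± 0.66 kb, adjusted p = 0.013). Synpo, which encodes the actin-associated protein synaptopodin, had 5.42, 6.72 and 6.05 kb and 8.86, 8.07 and 8.66 kb (2.47 ± 0.74 kb, adjusted p = 0.049). The libraries of the genotypes did not overlap at any of the 3. Ms4a6b and Synpo lost the call without replicate 1 (adjusted p = 0.52 and 0.44) and without replicate 2 (0.12 and 0.11) of every group, Synpo also without replicate 3 (0.078), and Nim1k without replicate 1 (0.19) and without replicate 2 (0.055). None of the 3 passed when scaled to the library total. With 20000 peaks per library Ms4a6b differed by 0.275 points (adjusted p = 1) and Synpo did not pass (adjusted p = 0.211). Of the 14 other settings, the call held under 6 at Ms4a6b, 10 at Nim1k and 4 at Synpo.

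Galnt9 stood apart as the only domain past the threshold for less coverage in DKO cells on all 4 days. Galnt9 encodes an enzyme that starts O-linked glycan chains. Its domain of 9.98 kb lies on chromosome 5 (110596005 to 110605984), inside the gene, which starts at 110544355 on the + strand. At day 0 it was covered over 8.07, 7.88 and 8.05 kb in WT and 4.58 and 4.86 kb in DKO libraries. At day 3 the values were 9.14, 8.81 and 7.59 kb against 3.55, 3.21 and 2.51 kb. At day 6 they were 8.36, 7.30 and 8.50 kb against 0.932, 1.51 and 0 kb, so that 1 DKO library had no peak there. At day 9 they were 7.38, 8.44 and 8.54 kb against 7.19, 4.71 and 5.16 kb. The genotypes did not overlap on any day, and the DKO libraries were lowest at day 6. The differences were -3.28 ± 0.80 kb at day 0 (adjusted p = 0.017), -5.42 ± 0.71 kb at day 3 (adjusted p = 5.2e-04), -7.24 ± 0.71 kb at day 6 (adjusted p = 4.1e-06) and -2.44 ± 0.71 kb at day 9 (adjusted p = 0.044), each from limma.

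At day 6 Galnt9 had the largest difference of all 310 domains in percentage points (-72.5), and it was lower under all 14 other settings, scaling to the library total included. The call at day 0 held under 8 of the 14 other settings. It was lost when all 24 libraries were used (adjusted p = 0.078), where the DKO library left out by the rule had 7.18 kb. It was also lost on the log2 scale (adjusted p = 0.93), when scaled to the library total (0.060) and without replicate 1, 2 or 3 of every group (0.067 to 0.17). The call at day 9 held under 6 of the 14 other settings, and not without replicate 2 (0.36) or replicate 3 (0.25). At day 3 it was lost on the log2 scale alone (0.28). The study named this gene from data on these cells, so its place here is not independent of that choice.

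Besides Galnt9, 1 domain passed at day 3. Irs1, encoding the insulin receptor substrate, had 6.31, 5.86 and 4.83 kb in WT and 3.34, 4.48 and 3.40 kb in DKO at day 3 (-1.93 ± 0.44 kb, limma, adjusted p = 0.041), without overlap. At days 0, 6 and 9 the genotypes overlapped at 6.31 to 8.05 kb. The call held under 6 of the 14 other settings, and not without replicate 1 (adjusted p = 0.87) or without replicate 2 (0.18) of every group.

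**Figure D5:**
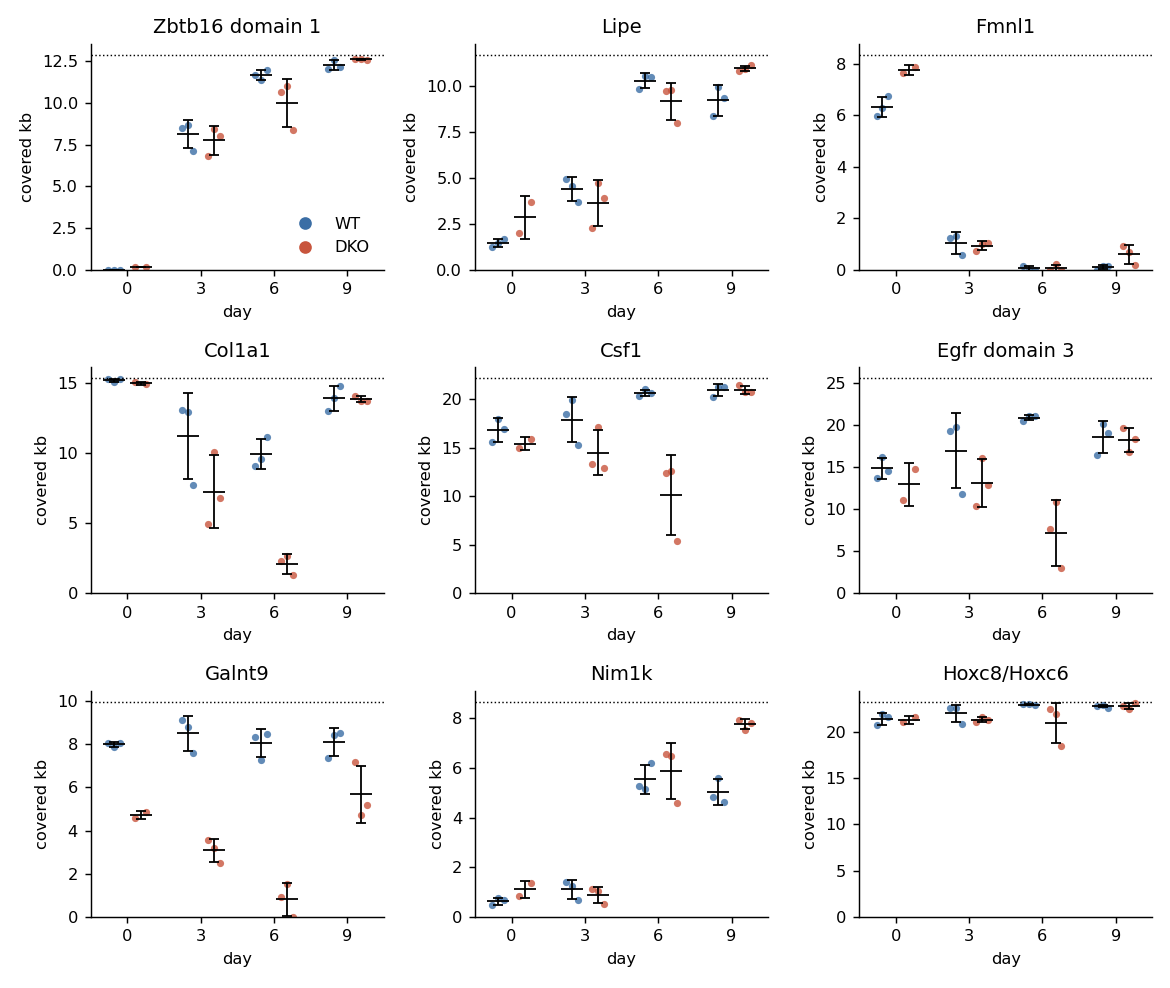
Covered length in kb at 9 domains by day for WT and DKO, 1 point per library, with bars for mean ± SD (DKO day 0 has 2 libraries) and the merged length as a dotted line. Zbtb16 domain 1 and Lipe rose in both genotypes, Fmnl1 fell, Col1a1, Csf1 and Egfr domain 3 dipped in DKO at day 6 in these unscaled values, Galnt9 was lower in DKO on all days, and Hoxc8/Hoxc6 stayed near full length.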

How the data were processed

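H3K27ac chromatin immunoprecipitation was sequenced as single reads from WT and DKO cells at 4 days, with 24 peak lists deposited and 16 input libraries that have no list and were not used here. Per the submitters' processing notes the authors used bcl2fastq 2.17, cutadapt 1.18, BWA and MACS2 2.1.1.20160309 with build mm10, and replicates were not pooled. Which input served as control, the thresholds used and how duplicate reads were handled are not given in the sources used here. Each deposited list gives a peak's position, its fold over background, its −log10 p and −log10 q and a score, all as the authors' MACS2 run wrote them. The lists hold neither reads nor totals, so depth is unknown, and the length under peaks depends on how many peaks a library yields. The local background per library was back-calculated from the fold and −log10 p at summits, where it was a whole number of reads within 0.02 for nearly all values.

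Peaks of 23 libraries were merged by an overlap of 1 bp, and merged regions of 8 kb or more were kept. DKO day 0 replicate 2 was left out by the rule. Gene models were from GENCODE M21 and sequence from RefSeq GRCm38.p6. Covered percent per region was fitted with limma 3.58.1 (R 4.3.3; 8 groups in 1 fit, with a variance trend and robust estimation) over the 113779 regions with a peak in at least 3 libraries, with Benjamini-Hochberg adjustment over all of them for each contrast, and a difference in kb is the fitted percent times the region's length. Every adjusted p is from limma unless another test is named. Sums over domains are given as mean ± SD. Permutation tests of these sums had been planned, but no p is given since the members were chosen with results known. The members and gene lists were chosen with earlier results of these data known.

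Named domains were the 10 longest, the 5 most covered, the 3 on each side of 8 kb and, for each genotype contrast by day and for WT day 9 against day 0, up to 5 past the threshold in each direction with the largest difference in kb, along with members of the gene lists. Certain items are not reported here. Further list members and the Tgfbr3 domains were named after their values were seen. Other settings were a minimum of 6 or 10 kb, all 24 libraries, 20000 peaks per library, a −log10 q of at least 5, a log2 scale (pseudocount 100 bp), scaling to the library total, no filter, other variance priors, a replicate block and leaving out libraries. Leaving out DKO day 6 replicate 3 and the variance prior by region length were chosen after seeing the data. The limma script was tested on simulated data. Python 3.11.15, numpy 2.4.6, pandas 2.3.3, scipy 1.17.1 and matplotlib 3.10.9 were used.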

Additional observations from a re-analysis of the deposited data

Results flagged for a closer look

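The DKO minus WT difference was higher at day 9 than at day 6 in 166 domains by the limma interaction, and in none lower (20.7% and 0.354% of all regions tested). When covered percent was scaled to the library total 1 was higher and 116 lower (9.52% of all regions passed in either direction). Without replicate 1 of every group 9 were higher (4.78% of all regions passed). Among the named domains, the interaction was 13.427 kb at Egfr domain 3 (adjusted p = 0.0069), 10.577 kb at Csf1 (adjusted p = 0.0038), 7.7987 kb at Col1a1 (adjusted p = 0.0055) and 7.655 kb at Cyth3 (adjusted p = 0.0014), each from limma. It was 6.0453 kb at Synpo (adjusted p = 9.0e-04), 5.7207 kb at Ms4a6b (adjusted p = 0.0068) and 4.8037 kb at Galnt9 (adjusted p = 0.0032). Each of these domains was named for a genotype difference at day 6 or day 9, and the interaction reuses those values. Its direction and size were thus in part fixed by that choice, and the p-values are given as a description. The interaction values are unscaled, and peaks per library at day 6 were 98503 to 105511 in WT and 47448 to 74867 in DKO. The part of peak yield in the interaction was not tested.

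The domain share of covered length was higher in all DKO libraries than in all WT libraries at day 6 and lower in all at day 9, and its genotype difference fell by 1.9833 percentage points between these days. This change was not tested. In DKO day 0 replicate 2, which the comparisons leave out, 2.8331 Mb of the domains lay under peaks, above the 2.07 to 2.24 Mb of the WT libraries at day 0. Its peaks had a median width of 1076 bp, against 313 to 376 bp in the other libraries, and the domains held 1.88 of its peaks on average.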

How the results depend on the processing

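Peak lists give no depth, so differences in covered length cannot be told apart from differences in how many peaks a library yielded. The number of domains was 782 from 6 kb, 125 from 10 kb, 938 with all 24 libraries and 181 with 20000 peaks per library, and 237 to 311 when libraries were left out. With 20000 peaks per library the genotype difference in the domain share (percentage points) was -0.72038 at day 0, -0.21299 at day 6, which reversed it, and -0.3196 over the 4 days. From 10 kb, the difference at day 6 was -0.41287 Mb covered and 0.84962 points of share. With all 24 libraries the differences at days 0, 3, 6 and 9 were 1.2184, -0.69402, -2.4475 and 0.51274 Mb and -1.1471, 1.7375, 2.729 and -0.98515 points, over longer merged domains. Leaving out libraries gave 0.019326 to 0.19781 Mb and -0.62394 to -0.21033 points at day 9, and at day 6 -0.97033 to -0.58816 Mb and 1.0432 to 1.7352 points.

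For domains past the threshold between genotypes at day 0, the count of 1 became 7 on the log2 scale, 0 when scaled to the library total, 12 with 20000 peaks, 3 with the variance prior by length and 4 with all 24 libraries, and 0 to 2 when libraries were left out. At day 3 the count of 2 became 5 when scaled (4 higher, 1 lower), 4 with 20000 peaks and 1 without a variance trend, with every merged region or with all 24 libraries, and 1 to 31 when libraries were left out. At day 6 the count of 201 became 180 when scaled, with most calls reversed, 102 with 20000 peaks, and 97 to 223 when libraries were left out. Of all regions tested, 23.4% passed at day 6, against 19.5% when scaled, 11.5% with 20000 peaks and 8.22% to 25.1% when libraries were left out. At day 9 the count of 4 became 1 on the log2 scale, 0 when scaled, 2 without a trend, 1 with every region, 17 with 20000 peaks, 11 with the prior by length and 1 with all 24 libraries, and 0 to 6 when libraries were left out. The interaction of 166 became 117 when scaled, reversed, 108 with every region, 51 with 20000 peaks, and 9 to 202 when libraries were left out. The change from day 0 to day 9 gave 78 to 139 calls in WT and 56 to 155 in DKO when libraries were left out, and 78 in DKO when scaled. The WT steps gave 42 to 105, 20 to 61 and 2 to 20 calls when libraries were left out. Scaled, the second step gave 30 and the third 12 with its balance reversed, and the third gave 28 with 20000 peaks, 27 with the prior by length and 8 with all 24 libraries. The causes of these changes were not tested.

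Replicate numbers name libraries but were not shown to pair them: deviations of same-numbered libraries correlated from -0.052 to 0.080 over all regions and from -0.338 to 0.340 over the domains. With a replicate block 2 domains passed at day 0, 205 at day 6 and 2 at day 9. For the sums, given without a test, the block gave 0.053756 Mb at day 0, -0.83081 Mb at day 6 and 0.13033 Mb at day 9, and 1.4987 points of share at day 6. No direction reversed under the 14 settings among the domains with the largest differences in kb, each in the contrast that named it, nor for Galnt9 on any day. Among members of the gene lists and the Tgfbr3 domains, those at Fosl2, Angptl4 and Sparc, Zbtb16 domain 2, Tgfbr2 domain 1, Col4a1 domain 2 and Tgfbr3 domains 1, 4 and 8 were lower in DKO at day 6 unscaled and higher when scaled.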
